A study of Mus musculus with 8 samples.

Results

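The genes described here encode the Mcm helicase and the proteins that load and start it: Mcm2, Mcm3, Mcm4, Mcm5, Mcm6, Mcm7, Cdc6, Orc1 and Cdc45. Every probe set that the platform annotation assigned to 1 of these 9 symbols and to no other was taken, which gave 11 of the 12488 probe sets on the array, for 9 of the 8251 genes that have a probe set of their own. Mcm3 and Mcm5 had 2 probe sets each and the other genes 1 each. The 8 arrays each carried the RNA of double positive thymocytes of the mouse, the CD4+ CD8+ stage of T cell development, in a study on engaging the T cell receptor with antibodies. The groups were Vbeta5, Valpha2, overnight control and control, with 2 arrays each, named for a beta chain segment of the receptor, an alpha chain segment and the kind of control. Each group had 1 array headed Data 1 and 1 headed Data 2, given below as the first and second value. The sources used here give no strain, genotype, age, antibody clone, dose or culture time, and do not say whether the Vbeta5 and Valpha2 cells were also kept overnight. Nothing in the labels says that the arrays of a group came from separate animals or cultures, so a p-value below stands for the spread between these samples alone, and that spread may be technical.

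Mcm2 to Mcm7 form a ring-shaped hexamer, the motor of the replicative helicase. In G1 the origin recognition complex, with Orc1 as a subunit, marks the origin, and Cdc6 and Cdt1 load the Mcm ring there in an inactive form, a step called licensing; in S phase Cdc45 and the GINS complex join the ring and turn it into the active helicase. Many of these genes are transcribed under E2F factors in cells that enter the cycle, and in the thymus double positive cells arise from dividing blasts and then become small and largely resting.

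The promoters of these genes are shown first because the members that moved together and the one that did not can be set beside their E2F-type words. RefSeq's GRCm38.p6 table gave a promoter of 300 bases, 250 before the start and 50 after it, for 8 of the 9 genes (not Mcm4), with 9 promoters in all because Mcm7 had 2. Both strands were searched for the 7-letter words GCGCCAA and GCGCGAA and the words GCGGCAA and GCGGGAA, which can overlap each other on opposite strands, and for CCAAT, which can overlap the end of GCGCCAA where a T follows. The promoters below are those of Mcm3 (chr1:20820263-20820562, minus strand), Mcm5 (chr8:75109259-75109558, plus strand) and Mcm7 (chr5:138171834-138172133, minus strand). These 3 genes were lower on every array outside control, Mcm5 on its brighter probe set only. Beside them stand Mcm2 (chr6:88898731-88899030, minus strand), which was also lower but holds none of the words, and Orc1 (chr4:108579204-108579503, plus strand), which holds 1 and was lower on the Vbeta5 arrays alone. They run 5′ to 3′, and capitals mark the E2F-type words on either strand.
Mcm3: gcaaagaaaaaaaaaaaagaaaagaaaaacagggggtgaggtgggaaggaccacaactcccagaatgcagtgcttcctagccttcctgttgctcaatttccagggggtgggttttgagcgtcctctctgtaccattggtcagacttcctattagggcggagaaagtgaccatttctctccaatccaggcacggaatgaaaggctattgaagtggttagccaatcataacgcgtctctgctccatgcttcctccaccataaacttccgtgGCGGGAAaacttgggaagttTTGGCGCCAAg
Mcm5: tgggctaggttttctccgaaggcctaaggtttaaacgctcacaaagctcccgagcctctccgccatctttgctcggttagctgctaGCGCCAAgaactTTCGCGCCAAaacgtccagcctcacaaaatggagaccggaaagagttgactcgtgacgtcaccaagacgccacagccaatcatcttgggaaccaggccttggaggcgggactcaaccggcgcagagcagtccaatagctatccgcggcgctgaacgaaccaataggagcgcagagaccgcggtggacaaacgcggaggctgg
Mcm7: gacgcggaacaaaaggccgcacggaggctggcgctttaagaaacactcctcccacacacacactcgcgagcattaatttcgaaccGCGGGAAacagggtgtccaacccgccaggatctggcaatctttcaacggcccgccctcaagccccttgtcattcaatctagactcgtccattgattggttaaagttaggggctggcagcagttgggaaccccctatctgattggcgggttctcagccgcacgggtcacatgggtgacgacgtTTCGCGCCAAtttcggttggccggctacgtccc
Mcm2: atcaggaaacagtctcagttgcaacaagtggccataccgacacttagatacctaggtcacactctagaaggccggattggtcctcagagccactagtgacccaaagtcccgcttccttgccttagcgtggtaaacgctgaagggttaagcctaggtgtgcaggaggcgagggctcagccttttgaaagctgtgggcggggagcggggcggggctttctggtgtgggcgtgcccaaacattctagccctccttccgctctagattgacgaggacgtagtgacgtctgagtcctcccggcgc
Orc1: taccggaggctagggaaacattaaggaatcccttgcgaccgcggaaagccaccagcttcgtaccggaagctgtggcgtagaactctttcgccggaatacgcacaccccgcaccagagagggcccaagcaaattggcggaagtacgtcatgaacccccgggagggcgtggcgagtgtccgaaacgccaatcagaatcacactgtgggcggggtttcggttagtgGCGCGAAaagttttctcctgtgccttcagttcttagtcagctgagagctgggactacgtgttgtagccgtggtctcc

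At least 1 E2F-type word was found in 7 of the members' 9 promoters, those of Mcm3, Mcm5, Mcm6, Mcm7 (both), Cdc6 and Orc1, against 9.57% of all 32851 promoters in the table and 14.8% of the 8409 promoters of genes on the array. The Mcm6 promoter held the most, 5 words in 3 separate stretches, and those of Mcm2 and Cdc45 held none. In the Mcm5 promoter 2 of the 3 words, GCGCGAA on the minus strand from base 99 and GCGCCAA on the plus strand from base 102, share their central bases, and the Mcm7 promoter has the same overlap from bases 268 and 271. CCAAT was found in 8 of the 9 promoters, all but that of Cdc6, against 37.4% of all promoters. These matches describe the letters only, and no binding was measured.

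The values are the authors' normalized intensities, called signals below, and differences are on the log2(signal + 17) scale and so come out too small for dim probe sets. The median signal of an array lay between 73.65 and 110.25, and 2 arrays a group limit the precision. The ratio of 3′ to 5′ Gapdh control signals, a sign of RNA quality, was 0.48, 1.72 and 0.95 on the log2 scale on the first Vbeta5, Valpha2 and overnight control arrays, against -0.28 to -0.09 on the other 5 arrays. Of the defining genes of the stage, Cd4 read 680.1 to 3189.5 outside control against 2362.0 to 3591.2 on control arrays, and Cd8a 2143.0 to 8257.1 against 6780.2 to 6947.2. Markers of macrophages, granulocytes and NK cells summed to more on every array outside control than on either control array: 448.4 to 1169.9 against 387.2 to 435.0, 271.4 to 714.4 against 175.9 to 240.4, and 505.6 to 722.6 against 268.1 to 292.0. Of these lists 4 of 8, 4 of 6 and 1 of 6 genes were tested, and the 1 that passed the test was Gzma, higher by 1.32 ± 0.23 (limma adjusted p = 0.020). Pooled outside control, B cell, dendritic cell, erythroid, epithelial and fibroblast or endothelial markers had summed signals that overlapped with control, and none passed. By group, B cell markers summed to 678.4 to 846.5 on Valpha2 and 777.8 to 982.9 on overnight control arrays, against 363.8 to 560.7 on control arrays. Dendritic cell markers summed to 992.6 to 1123.4 on Vbeta5 arrays against 555.8 to 589.5 on control arrays. The remaining groups overlapped with control for these lists. The part of these differences in the results below was not tested.

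Of the 11 probe sets, 10 passed the filter on low signal, and they also pass it on the 6 arrays outside control alone; they cover 8 of the 9 genes. Mcm6 was the exception. Its probe set read 14.7 and 13.6 on Vbeta5 arrays, 3.6 and 15.6 on Valpha2 arrays, 4.9 and 13.0 on overnight control arrays and 3.5 and 10.8 on control arrays. All 8 values lie under the offset of 17, so the array gives no usable level for this subunit in any group. Below, counts out of 10 members are counts of the tested probe sets, in which Mcm3 and Mcm5 each count more than once.

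Most genes of the helicase, the loader Cdc6 and the activator Cdc45 were far lower on every Vbeta5, Valpha2 and overnight control array than on the control arrays. Mcm2, Mcm3, Mcm4, Mcm5 (brighter probe set), Mcm7, Cdc6 and Cdc45 stood at 10.6% to 47.2% of the control mean in the Vbeta5, Valpha2 and overnight control groups. Orc1 and the dimmer Mcm5 probe set did not share the pattern. With the 6 other arrays tested together against the 2 control arrays, 8 of the 10 tested probe sets (7 of 8 genes) passed at an adjusted p of 0.05, all lower, where 0.966% of all 8281 probe sets tested were lower at that threshold (limma). The same 8 had every one of the 6 arrays under both control arrays, which 6.67% of all probe sets did. The median difference was -1.60 over the members tested and 0.08 over all probe sets. In such bulk samples, fewer cells of a type and less RNA per cell cannot be told apart.

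**Figure D1:**
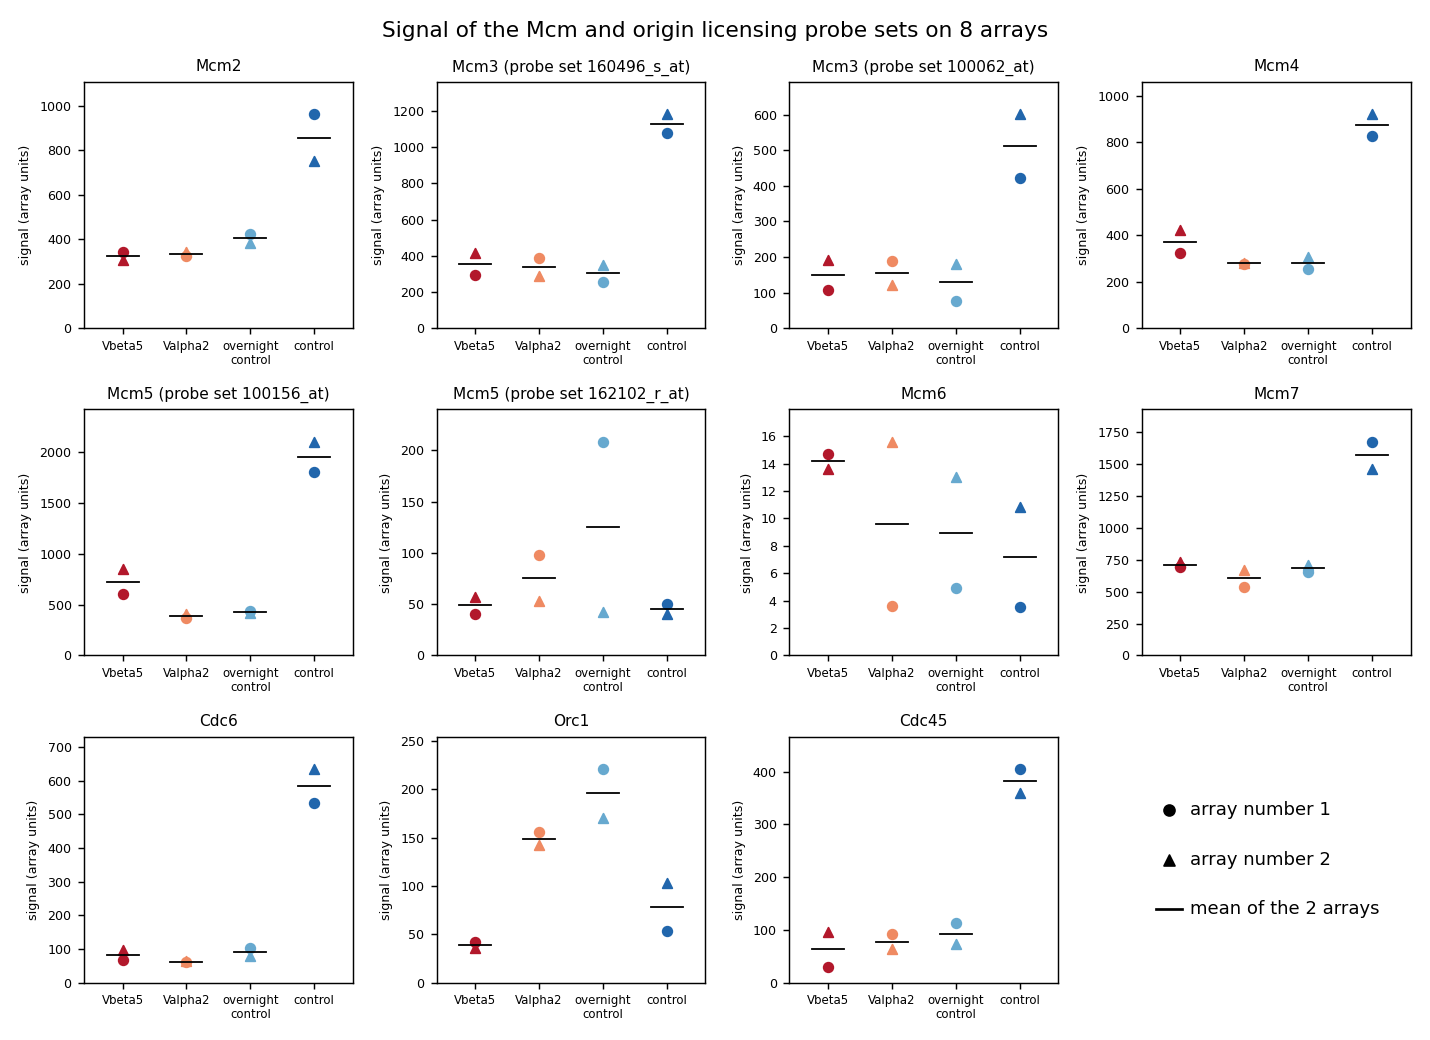
Signal of each of the 11 probe sets on each of the 8 arrays (linear axis in array units, each panel with its own range from 0), with Vbeta5, Valpha2, overnight control and control from left to right and a line at each group's mean. The control arrays lie above the other 6 in 8 panels, while Orc1, the dimmer probe set of Mcm5 and the dim Mcm6 probe set do not show this.

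Among the helicase subunits Mcm5 had the firmest difference. Its brighter probe set read 600.7 and 848.9 on Vbeta5 arrays, 363.6 and 403.3 on Valpha2 arrays, 437.1 and 419.1 on overnight control arrays and 1806.8 and 2100.7 on control arrays. Both control arrays lay above all others without overlap, and the Vbeta5 arrays lay above the Valpha2 and overnight control arrays. The 6 arrays together differed from control by -1.96 ± 0.20 (SE, limma adjusted p = 0.0034, lower on 6 of 6 arrays), which ranked 2 by p-value among the 8281 probe sets.

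The dimmer Mcm5 probe set gave another picture. It read 40.8 and 57.4 on Vbeta5 arrays, 97.7 and 52.7 on Valpha2 arrays, 208.6 and 42.7 on overnight control arrays and 50.3 and 40.1 on control arrays. Vbeta5 and overnight control overlapped with control, and both Valpha2 arrays lay above both control arrays. The difference over the 6 arrays was 0.50 ± 0.50 (limma adjusted p = 0.773). The first overnight control array, at 208.6, stood far above the rest. The 2 probe sets of Mcm5 therefore disagree, and the gene's fall rests on the brighter one.

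Mcm3 gave the same direction with both of its probe sets. The brighter read 291.5 and 414.8 on Vbeta5 arrays, 385.7 and 289.7 on Valpha2 arrays, 256.7 and 350.3 on overnight control arrays and 1077.2 and 1180.5 on control arrays. The dimmer read 107.2 and 190.8 on Vbeta5 arrays, 189.8 and 121.1 on Valpha2 arrays, 76.7 and 181.6 on overnight control arrays and 422.1 and 600.3 on control arrays. Control stood apart from the other 3 groups, which overlapped with each other on both probe sets. The differences against control were -1.73 ± 0.23 (limma adjusted p = 0.010) and -1.75 ± 0.36 (adjusted p = 0.048), lower on 6 of 6 arrays for both.

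Mcm4 and Mcm7 are neighbours in the ring, and with Mcm6 they form a subcomplex that unwinds DNA on its own in the test tube. Mcm4 read 322.0 and 424.0 on Vbeta5 arrays, 278.1 and 282.0 on Valpha2 arrays, 256.3 and 306.3 on overnight control arrays and 828.4 and 920.2 on control arrays. Mcm7 read 692.0 and 729.5 on Vbeta5 arrays, 536.7 and 669.6 on Valpha2 arrays, 655.7 and 708.4 on overnight control arrays and 1675.1 and 1460.9 on control arrays. Neither gene's control values overlapped with any other array. Mcm4 differed by -1.46 ± 0.21 (limma adjusted p = 0.012) and Mcm7 by -1.22 ± 0.18 (adjusted p = 0.014), each lower on 6 of 6 arrays.

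Mcm2, which together with Mcm5 forms the gate through which the ring opens around DNA, had the smallest fall after Mcm7 among the 7 lower genes. It read 343.5 and 304.5 on Vbeta5 arrays, 325.1 and 343.4 on Valpha2 arrays, 424.5 and 384.0 on overnight control arrays and 960.2 and 752.7 on control arrays. Again control stood alone, and the overnight control arrays lay above both antibody groups. The 6 arrays differed from control by -1.23 ± 0.20 (limma adjusted p = 0.017, lower on 6 of 6 arrays), and the antibody groups are compared with overnight control further on.

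The loader Cdc6, an ATPase that recruits the Mcm ring to the origin recognition complex, had the largest fall of the 9 genes. It read 66.5 and 96.4 on Vbeta5 arrays, 60.0 and 63.8 on Valpha2 arrays, 101.6 and 79.4 on overnight control arrays and 533.8 and 635.5 on control arrays. The highest of the 6 arrays, at 101.6, lay far under the lower control array, at 533.8. The difference of -2.68 ± 0.28 (limma adjusted p = 0.0034, lower on 6 of 6 arrays) was the 7th most negative of the 8281 probe sets. In linear terms the group means were 13.9%, 10.6% and 15.5% of the control mean in Vbeta5, Valpha2 and overnight control.

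Cdc45, which activates the loaded ring, followed Cdc6. It read 29.7 and 96.6 on Vbeta5 arrays, 91.3 and 64.4 on Valpha2 arrays, 112.1 and 73.8 on overnight control arrays and 405.3 and 360.1 on control arrays. The 6 arrays lay under both control arrays, and the first Vbeta5 array was the lowest. The difference was -2.14 ± 0.38 (limma adjusted p = 0.023, lower on 6 of 6 arrays), with group means at 16.5%, 20.3% and 24.3% of control in Vbeta5, Valpha2 and overnight control.

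Orc1, the subunit of the origin recognition complex that binds Cdc6, was the only member gene with a tested main probe set that did not stand lower on all 6 arrays. It read 41.8 and 35.6 on Vbeta5 arrays, 155.8 and 142.2 on Valpha2 arrays, 221.2 and 170.1 on overnight control arrays and 53.9 and 103.5 on control arrays. The Valpha2 and overnight control arrays lay above both control arrays and the Vbeta5 arrays below both, while the 2 control arrays themselves differed widely. Across the 6 arrays the difference from control was 0.43 ± 0.33 (limma adjusted p = 0.695). Orc1 stood at 49.2%, 189% and 249% of the control mean in Vbeta5, Valpha2 and overnight control.

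**Figure D2:**
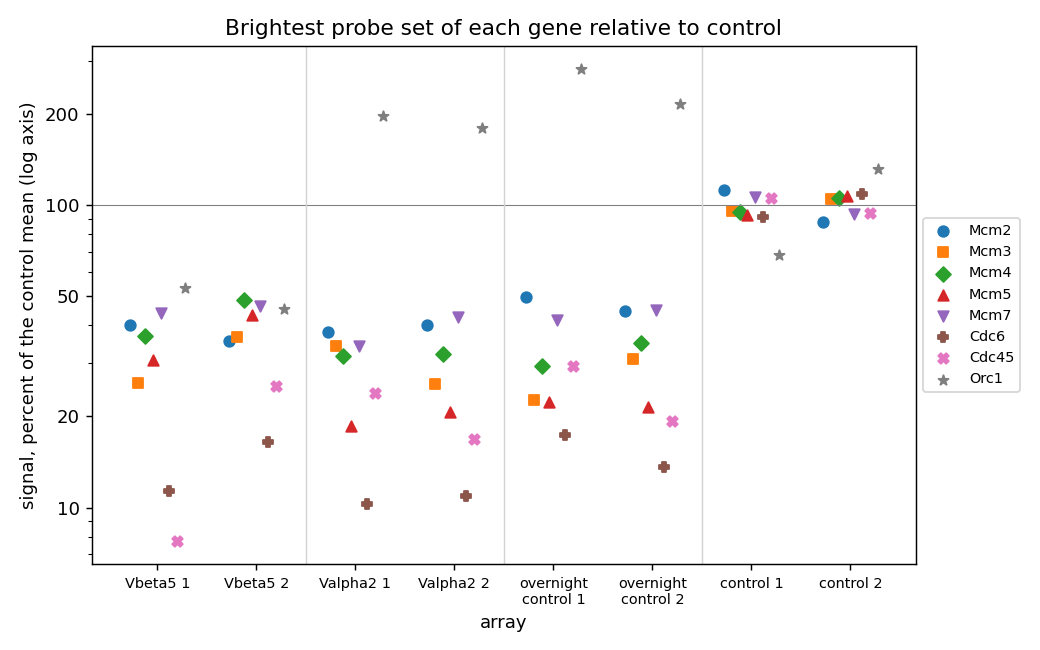
Signal of the brighter or single probe set of each tested gene on each array, as a percent of that gene's mean on the 2 control arrays (log axis). Outside control the group means of Cdc6 lie at 10.6% to 15.5% and those of the 5 Mcm genes at 19.6% to 47.2%, and Orc1 lies above 100% on the Valpha2 and overnight control arrays.

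The 8 lower probe sets kept their direction when either array of any group was left out, with differences from -2.80 for Cdc6 to -1.06 for Mcm2. Their calls did not survive the loss of a control array. With either the first or the second control array left out, 0 of 10 passed the adjusted threshold (limma), while 8 of 10 still had an unadjusted p under 0.05 both times. Over all 8281 probe sets, 0 passed, and 382 and 642 had an unadjusted p under 0.05 without the first and without the second. The dimmer Mcm3 probe set was also lost without the first Vbeta5 array or without either Valpha2 array (limma adjusted p from 0.075 to 0.098), and Cdc45 without the second Valpha2 array (adjusted p = 0.052). Without the 3 arrays with the raised 3′ to 5′ ratio, the same count of 8 passed, with differences of -2.64 for Cdc6, -1.86 for Mcm5 and -1.27 for Mcm2. Within the Data 1 arrays the 8 differences ran from -2.59 for Cdc6 to -1.37 for Mcm2, and within the Data 2 arrays from -2.77 for Cdc6 to -1.04 for Mcm7.

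Taken group by group, the 3 comparisons share the 2 control arrays, so their lists of calls are not independent of each other. In Vbeta5 against control 7 of 10 member probe sets passed, all lower, against 0.99% of all probe sets (limma). They were Mcm2 (-1.35), the brighter Mcm3 probe set (-1.65), Mcm4 (-1.20), the brighter Mcm5 probe set (-1.43), Mcm7 (-1.12), Cdc6 (-2.62) and Cdc45 (-2.45), with adjusted p between 0.010 for Cdc6 and 0.046 for Mcm4. The median was -1.39 over the members and 0.08 over all probe sets. The dimmer Mcm3 probe set, at -1.70, had an adjusted p of 0.109, and Orc1, at -0.73, one of 0.561. Each passing gene was lower on 2 of 2 Vbeta5 arrays. Fewer members and fewer of all probe sets passed without either Vbeta5 array, and no member call held without either control array. With any 1 array left out the 7 stayed lower. Their differences then ran, for example, from -3.10 to -1.81 for Cdc45, -2.84 to -2.40 for Cdc6 and -1.39 to -1.01 for Mcm4.

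In Valpha2 against control 5 of 10 member probe sets passed, all lower, against 0.362% of all probe sets (limma). These were the brighter Mcm3 probe set (-1.70), Mcm4 (-1.58), the brighter Mcm5 probe set (-2.30), Mcm7 (-1.36) and Cdc6 (-2.93), with adjusted p between 0.016 for Mcm5 and 0.040, and each was lower on 2 of 2 arrays. Mcm5 and Cdc6 ranked 1 and 2 by p-value on the whole array. Mcm2, at -1.30, had an adjusted p of 0.062 and Cdc45, at -2.09, one of 0.123, so both missed the threshold with differences like those in the Vbeta5 group. Orc1 read 0.84 higher (adjusted p = 0.692). The member median was -1.60, against 0.07 over all probe sets. Fewer members and fewer of all probe sets passed without either Valpha2 array. With any 1 array left out, the differences ran from -3.05 to -2.80 for Cdc6, -2.40 to -2.19 for the brighter Mcm5 probe set and -1.51 to -1.20 for Mcm7. The calls, of members and over all probe sets, also became fewer without either Vbeta5 array, which enters through the shared estimate of spread. Without the first control array 0 passed, with 8 at an unadjusted p under 0.05 (284 of all 8281), and without the second 0 passed, with 9 (489 of all 8281).

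The overnight control group had no antibody in its name, and its members were low as well. Against control 4 of 10 passed, all lower, where 0.169% of all probe sets did (limma). They were the brighter Mcm3 probe set (-1.85, adjusted p = 0.033), Mcm4 (-1.58, adjusted p = 0.046), the brighter Mcm5 probe set (-2.14, adjusted p = 0.021, rank 1 on the array) and Cdc6 (-2.49, adjusted p = 0.026), each lower on 2 of 2 arrays. Mcm2 (-1.04, adjusted p = 0.135), Mcm7 (-1.18, adjusted p = 0.076), Cdc45 (-1.88, adjusted p = 0.162) and the dimmer Mcm3 probe set (-1.93, adjusted p = 0.126) missed it, as did Orc1, which read 1.19 higher (adjusted p = 0.393). The member median was -1.72, against 0.10 over all probe sets. Whether members passed depended on which overnight control array was kept, as it did over all probe sets. With any 1 array left out, the differences ran from -2.64 to -2.34 for Cdc6 and -2.25 to -2.04 for the brighter Mcm5 probe set. For the brighter Mcm3 probe set they ran from -2.06 to -1.64, and for Mcm4 from -1.70 to -1.46. Without the first control array 0 passed, with 8 at an unadjusted p under 0.05 (319 of all 8281), and without the second 0 passed, with 9 (619 of all 8281). The call for Mcm4 was lost without any 1 of the 4 antibody arrays (limma adjusted p from 0.065 to 0.081), through the shared estimate of spread.

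**Figure D3:**
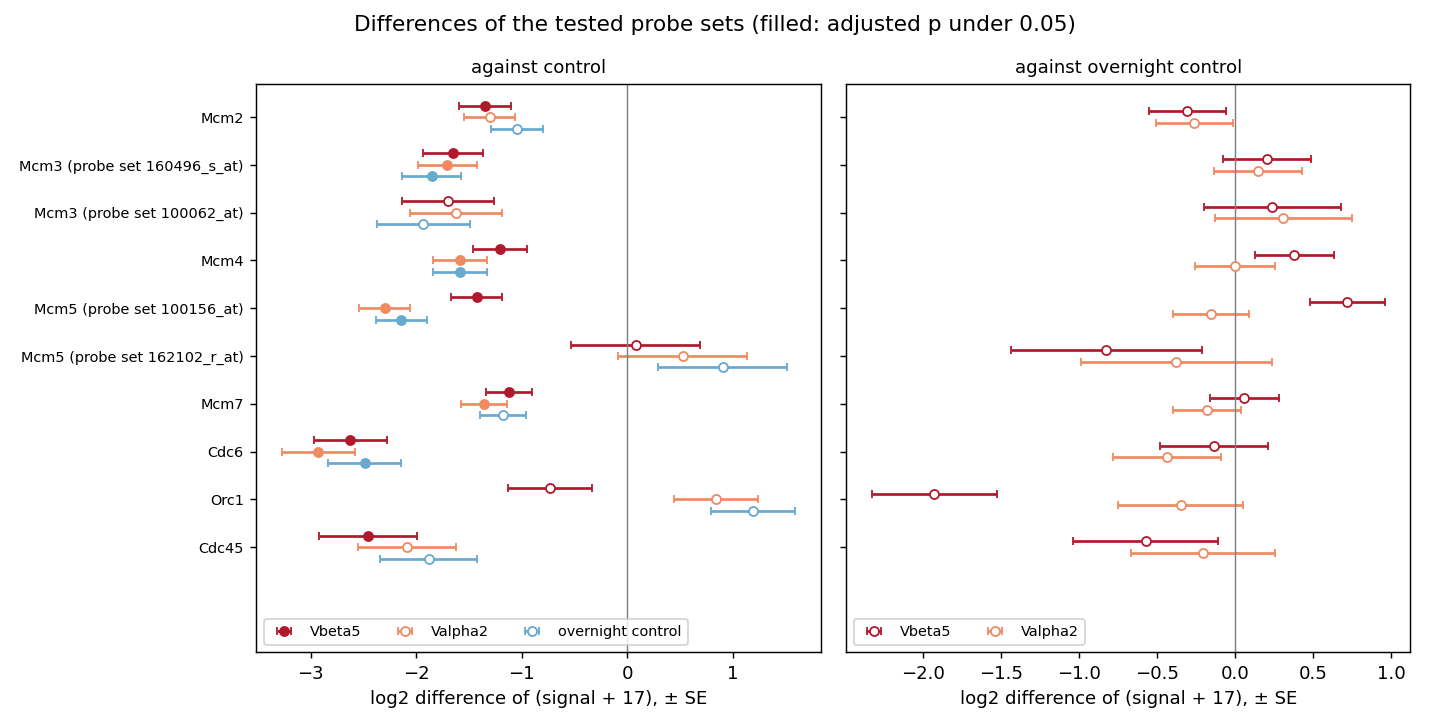
Log2 difference of (signal + 17) with its SE for the 10 tested probe sets, against control on the left for Vbeta5, Valpha2 and overnight control, and against overnight control on the right for Vbeta5 and Valpha2. Filled points have an adjusted p under 0.05; all of them lie on the left at or below -1.12, and no point on the right is filled.

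The antibody groups were next set against overnight control; since it is not stated whether their cells were also kept overnight, receptor engagement and culture cannot be told apart here. For Vbeta5, 0 of 10 members passed the adjusted threshold, where 0.616% of all probe sets did (limma), and 2 of 10 had an unadjusted p under 0.05, as 703 of all 8281 did. Those 2 were the brighter Mcm5 probe set and Orc1, and they pointed in opposite directions. The member median of -0.04 was close to the -0.01 of all probe sets.

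On the brighter Mcm5 probe set the Vbeta5 signals of 600.7 and 848.9 both exceeded the overnight control signals of 437.1 and 419.1. The difference was 0.72 ± 0.24 (95% interval 0.18 to 1.25) with a limma adjusted p of 0.347, and it was 0.44 within the Data 1 arrays and 0.99 within the Data 2 arrays. The dimmer Mcm5 probe set did not share this, with 40.8 and 57.4 on Vbeta5 arrays against 208.6 and 42.7 on overnight control arrays. Orc1 went the other way, at 41.8 and 35.6 on Vbeta5 arrays against 221.2 and 170.1 on overnight control arrays. Its difference was -1.92 ± 0.40 (95% interval -2.81 to -1.04, limma adjusted p = 0.077), lower on 2 of 2 arrays. With the data number as a replicate block Orc1 passed (limma adjusted p = 0.0395), and 1 of 10 members then did. The block also raised the calls over all probe sets from 51 to 124, and Orc1 passed under no other alternative. Mcm4 (0.38), Mcm7 (0.06), Mcm2 (-0.31), Cdc6 (-0.14), Cdc45 (-0.57) and the Mcm3 probe sets (0.20 and 0.24) differed by less, with adjusted p of 0.824 or more.

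For Valpha2 against overnight control, 0 of 10 members passed and none had an unadjusted p under 0.05, where 0% of all probe sets passed and 134 of 8281 had an unadjusted p under 0.05 (limma). The brighter Mcm5 probe set differed by -0.15 (95% interval -0.69 to 0.38), Mcm7 by -0.18, Mcm2 by -0.26, Orc1 by -0.35 and Cdc6 by -0.44 ± 0.35. Cdc45 differed by -0.21, the dimmer Mcm5 probe set by -0.38 and Mcm4 by -0.001. Both Mcm3 probe sets went the other way, at 0.15 and 0.31. The member median was -0.19, against -0.02 over all probe sets. These intervals do not show that the groups are alike.

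Set against each other directly, Vbeta5 and Valpha2 did not separate any member at the adjusted threshold, 0 of 10 where 0.278% of all probe sets passed (limma). The 2 with an unadjusted p under 0.05, which 678 of all 8281 had, were again the brighter Mcm5 probe set, 0.87 ± 0.24 higher in Vbeta5 (95% interval 0.34 to 1.41, adjusted p = 0.256), and Orc1, which differed by -1.58 ± 0.40 (adjusted p = 0.215). Both Vbeta5 arrays lay above both Valpha2 arrays on the brighter Mcm5 probe set and below them for Orc1. The dimmer Mcm5 probe set overlapped, at 40.8 and 57.4 on Vbeta5 arrays against 97.7 and 52.7 on Valpha2 arrays. Mcm4 (0.38), Cdc6 (0.30), Mcm7 (0.24) and the brighter Mcm3 probe set (0.05) differed by less. So did Cdc45 (-0.37), Mcm2 (-0.04) and the dimmer probe sets of Mcm5 (-0.45) and Mcm3 (-0.07), in the other direction. The member median was 0.00, against 0.02 over all probe sets.

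Beyond the 9 genes, 22 other licensing and origin firing genes were listed, of which 12 were on the array and 9 were tested. With the 6 arrays against control, 0 rose and 2 fell, and 7 did not pass (limma); the list's median was -0.95. Orc6, another subunit of the origin recognition complex, read 141.1 and 110.6 on Vbeta5 arrays, 180.7 and 247.2 on Valpha2 arrays, 193.9 and 206.1 on overnight control arrays and 657.2 and 581.7 on control arrays. It fell by 1.73 ± 0.24 (adjusted p = 0.011), and unlike Orc1 it was lower on 6 of 6 arrays. Cdt1, which loads the ring together with Cdc6, differed by -1.20 ± 0.20 (adjusted p = 0.018), and by -1.30 (adjusted p = 0.053) on its second probe set.

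Of the remaining origin recognition subunits on the array, Orc4 differed by 0.06, Orc5 by 0.12 and Orc2 by -0.22 over the 6 arrays, and none passed in any comparison (limma). The Orc2 value averages groups that went different ways, with signals of 27.8 and 54.1 on Vbeta5 arrays, 58.6 and 103.6 on Valpha2 arrays, 116.1 and 159.9 on overnight control arrays and 63.9 and 131.6 on control arrays. Both Vbeta5 arrays lay below both control arrays (-0.96, adjusted p = 0.510). Gmnn, or geminin, which blocks Cdt1 after licensing, differed by -1.50 (limma adjusted p = 0.069). Cdc7, the kinase that phosphorylates the Mcm ring to start it, differed by -0.95 (adjusted p = 0.248). Wdhd1, which ties the helicase to DNA polymerase alpha, differed by -1.06 (adjusted p = 0.213), and Topbp1, needed to bring Cdc45 to the ring, by -0.78 (adjusted p = 0.514). Mcm10 was too dim to be tested, with 6.5 to 49.9 on the 6 arrays outside control against 97.6 and 130.3 on control arrays. In single groups the same 2 genes, Orc6 (-2.16) and Cdt1 (-1.26), passed in Vbeta5 against control, and 0 of 9 passed in Valpha2 or overnight control against control or in any comparison among those 3 groups.

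The regulators of these genes were counted in the same way. Of 20 cyclin-dependent kinase and E2F genes, 15 were on the array and 13 were tested; 0 rose and 3 fell with the 6 arrays against control, with a median of -0.57. The 3 were E2f8, a repressive E2F that is itself transcribed late in G1 (-1.94, limma adjusted p = 0.019), Ccna2, or cyclin A2 (-1.50, adjusted p = 0.015), and Cdk1, the mitotic kinase (-2.16, adjusted p = 0.026). E2f1, an activating E2F, differed by -1.05 (adjusted p = 0.406), with 17.6 to 73.8 on the 6 arrays against control signals of 86.4 and 81.8. Its second probe set, too dim to be tested, read 3.6 to 13.6 on the 6 arrays and 51.6 and 70.8 on control arrays. In single groups 3 fell in Vbeta5, 1 in Valpha2 and 0 in overnight control against control, and 0 passed in the comparisons among those 3 groups.

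General markers of dividing cells moved with the members. Of 14 listed, 12 were on the array and tested, and 10 fell with the 6 arrays against control, with a median of -1.83 (limma). Their summed signal was 2784.9 to 4585.7 on the 6 arrays and 13867.7 to 14184.4 on the control arrays. Rrm2, a ribonucleotide reductase subunit, differed by -3.68, Top2a, the topoisomerase of condensing chromosomes, by -3.20, and Mki67, the Ki-67 antigen, by -2.26. A dimmer Mki67 probe set did not share the fall, at 0.68 (limma adjusted p = 0.626). It read 55.5 to 189.2 on the 6 arrays and 52.7 and 45.5 on control arrays. The dimmer probe set of Plk1, a gene of this list, overlapped with control too, at 170.2 to 379.4 on the 6 arrays against 335.5 and 312.4. Against control 8 fell in Vbeta5, 4 in Valpha2 and 2 in overnight control, and 0 passed among those 3 groups. Whether the share of cycling cells accounts for the members' levels was not tested.

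**Figure D4:**
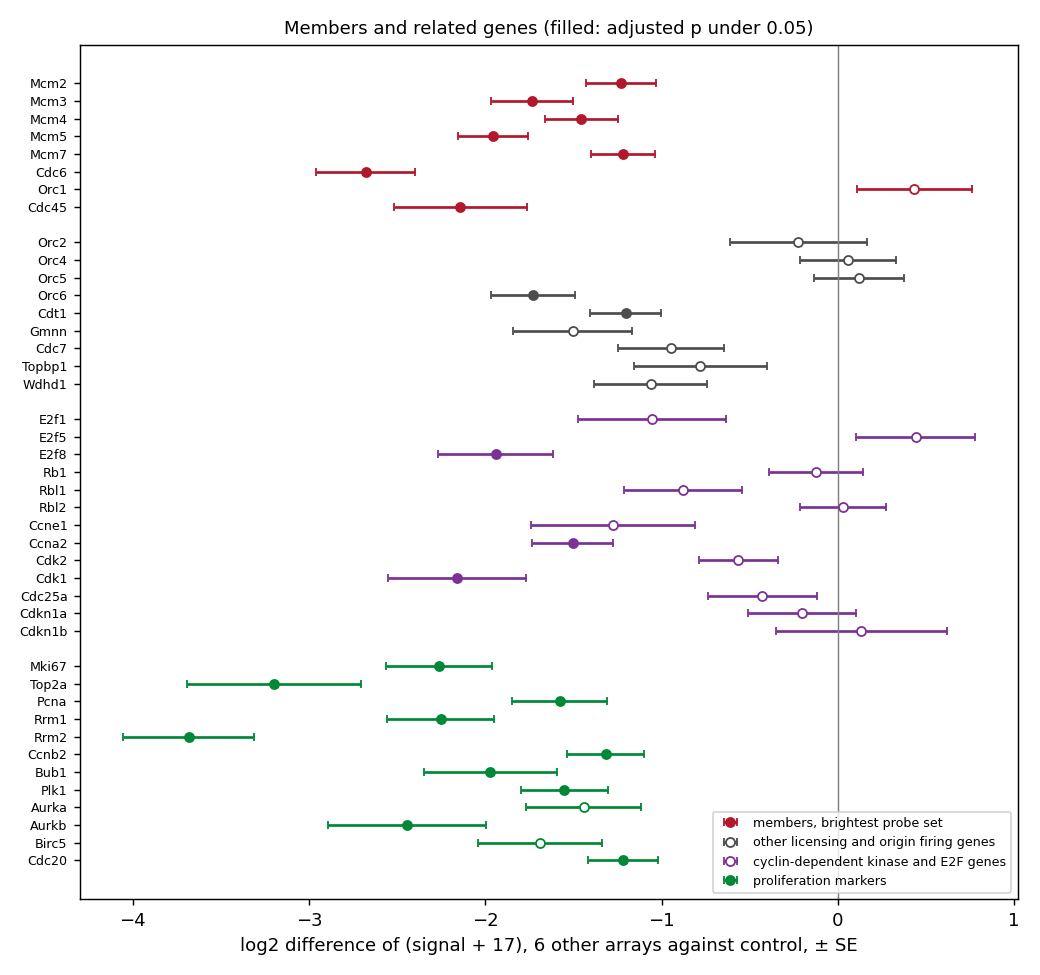
Log2 difference of (signal + 17) with its SE, the 6 other arrays against control, for the brightest tested probe set of each member and of the genes in 3 lists, coloured by list; filled points have an adjusted p under 0.05. Orc1 stands at 0.43, Orc2 at -0.22, Orc4 at 0.06 and Orc5 at 0.12, while Orc6 (-1.73) lies among the Mcm genes. Cdt1 (-1.20) lies beside Mcm7 (-1.22), the least lowered Mcm gene, and Rrm2 (-3.68) is the lowest point.

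The stage markers differed between the groups outside control. Of 12 double positive thymocyte markers 10 were tested, and 0 passed with the 6 arrays against control (limma). Their summed signal was 17721.4 to 60283.2 on the 6 arrays and 45056.9 to 48971.9 on the control arrays, so the pooled ranges overlap. The Vbeta5 arrays alone summed to 17721.4 to 30148.0, under both control arrays, with 9 of 10 markers lower and a median of -1.03, while the Valpha2 arrays summed to 48432.2 to 60283.2 and the overnight control arrays to 57434.1 to 58585.2. In Vbeta5 against overnight control 2 of the 10 fell, in Vbeta5 against Valpha2 2, and in Vbeta5 against control 3. Rag1, a subunit of the V(D)J recombinase picked here after its values were seen, read 3361.7 and 1840.3 on Vbeta5 arrays, 11783.5 and 9392.4 on Valpha2 arrays, 14715.4 and 12491.4 on overnight control arrays and 5382.8 and 11120.9 on control arrays. The Orc1 signals have the same order of group means as Rag1, with Vbeta5 lowest and overnight control highest, as a description over 4 groups. Of the 10 tested stage markers, 4 went against this order, being lower in overnight control than in control. How many of all probe sets share the order was not counted.

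The genes whose pattern over the 8 arrays lay nearest to the mean of Mcm2 to Mcm7 were Cbx5 (root mean square difference of 0.127 on the log2 scale after centring), Dnmt1 (0.132), Gsn (0.134), Stmn1 (0.150), Smc2 (0.161), Nucks1 (0.164), Rfc5 (0.175) and Tubb5 (0.180), where the median probe set tested lay at 0.687. Dnmt1 copies DNA methylation at the fork, Rfc5 is a subunit of the clamp loader and Smc2 a subunit of condensin. Of the members outside that mean, Cdc45 lay at 0.608, Cdc6 at 0.659 and Orc1 at 1.12. Profiles were centred but not scaled, so a larger fall on the same arrays also adds distance. The main probe sets inside the mean lay from 0.104 for Mcm7 to 0.395 for Mcm5 and 0.649 for Mcm6. The mean includes the dim Mcm6 probe set. With the 5 Mcm genes that were tested, a choice made after that probe set was seen to be dim, the nearest were Smc2 (0.0814), Fen1 (0.162), Dusp6 (0.182), Cbx5 (0.194), Cenpk (0.201), Nucks1 (0.213), Plk1 (0.217) and Tmpo (0.219), against a median of 0.791. Cbx5, Smc2 and Nucks1 were near by either mean.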

How the data were processed

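The authors deposited 1 table of normalized intensity values, 1 per probe set and array, per the labels; the sources used here do not give the software or method. Trimmed by 2% at each end, the mean intensity came to 250.14 to 250.16 on every array. Control probe sets (66) were left out, signals were turned into log2(signal + 17), with 17 as the rounded 20th percentile of positive signals (16.6), and the dimmest 33.3% by mean were left out, which left 8281. Symbols came from the platform annotation, updated by gene identifier with RefSeq's GRCm38.p6 table: 10833 probe sets had 1 symbol, 396 several and 1193 none.

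One limma 3.58.1 fit in R 4.3.3 held a mean per group over the 8 arrays, with a variance trend in eBayes (residual degrees of freedom 4, prior 6.33) and two-sided Benjamini-Hochberg adjusted p over all 8281 probe sets in each comparison. With 2 arrays against 2, an exact two-sided permutation p is at least 0.333. That bound does not apply to the 6 other arrays against the 2 control arrays. No permutation p was computed for any comparison. The fit was tested on simulated data. Alternatives covered scaling, offset, filter, variance trend, the arrays fitted, the replicate number as a block and each array left out.

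All probe sets of the 9 symbols are named, and a gene's main probe set is its brightest. Genes of 3 lists (other licensing and origin firing, cyclin-dependent kinase and E2F, proliferation) and 9 lists of cell type markers are counted, with those past the threshold and a few of known role named. The 8 nearest genes are those of smallest root mean square difference from the centred Mcm profile. Members and lists were chosen with earlier results of these data known. A planned comparison of the Mcm proteins was not made.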

Additional observations from a re-analysis of the deposited data

How the results depend on the processing

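The 8 probe sets (7 genes) lower with all 6 arrays against control kept a negative sign under all 17 alternatives run. Of the 10 tested probe sets, 4 or more passed under each alternative that kept all 8 arrays. These calls did not survive the loss of either control array. The number passing in Vbeta5, Valpha2 and overnight control against control was 7, 5 and 4. It was 1, 0 and 0 without a variance trend, where 8, 9 and 9 had an unadjusted p under 0.05, 5, 2 and 2 with arrays scaled to a common median, 6, 3 and 2 after quantile normalization, 6, 2 and 4 with a floor in place of the offset, and 6, 2 and 3 with no filter. For all 6 arrays it was 4 without the trend and 7 or 8 in the others just named. Leaving out each array in turn gave 0 to 8 members for the 6 arrays, 0 to 8 for Vbeta5, 0 to 6 for Valpha2 and 0 to 5 for overnight control against control, and 0 to 0 in the 3 comparisons without control.

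Over all 8281 probe sets, 101 passed for the 6 arrays against control, 133 for Vbeta5, 33 for Valpha2 and 15 for overnight control, 51 for Vbeta5 against overnight control, 0 for Valpha2 against overnight control and 23 for Vbeta5 against Valpha2. Across the alternatives these ran from 0 to 219, 0 to 293, 0 to 89, 0 to 119, 0 to 144, 0 to 1 and 0 to 90 in the same order. Without a variance trend they were 33, 20, 0, 0, 0, 0 and 0.

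Arrays of a data number deviated from their group means together, with r from 0.104 to 0.345 over the 6 pairs of groups, but with 2 numbers and no statement of what they mark, this is a hint and not a pairing in the design. With the number as a replicate block, 8 member probe sets passed for the 6 arrays, 8 for Vbeta5, 6 for Valpha2 and 6 for overnight control against control. In Vbeta5 against overnight control 1 passed, Orc1 (limma adjusted p = 0.0395). Over all probe sets the block gave 208, 235, 89, 99, 124, 0 and 90 in the order above.

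Limits are the 2 arrays a group, the control pair on which every comparison against control rests, the lack of a detection measure for dim probe sets such as Mcm6, and an unstated normalization. The cause of these changes was not tested.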

Other observations

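Some members share a promoter region with a gene read from the other strand, which gives a neighbour to set beside them. In RefSeq's GRCm38.p6 table Ufd1, a cofactor in the extraction of ubiquitinated proteins, starts 322 bases from Cdc45. It read 295.3 and 238.2 on Vbeta5 arrays, 260.5 and 233.9 on Valpha2 arrays, 258.1 and 347.3 on overnight control arrays and 305.3 and 296.7 on control arrays. Overnight control overlapped with control, and both Vbeta5 and both Valpha2 arrays lay under both control arrays. With the 6 arrays against control Ufd1 differed by -0.15 ± 0.23 (limma adjusted p = 0.853), beside the -2.14 ± 0.38 of Cdc45; the difference between the genes was not tested. Prpf38a, a splicing factor, starts 118 bases from Orc1. It read 393.1 and 363.6 on Vbeta5 arrays, 398.2 and 451.5 on Valpha2 arrays, 447.7 and 421.0 on overnight control arrays and 335.6 and 379.2 on control arrays, a difference of 0.20 ± 0.20 (limma adjusted p = 0.775). Ap4m1, which starts 138 bases from the nearer Mcm7 start, had no probe set with a value here.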
